A study of Mus musculus with 38 samples.

Results

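Ectoderm-like cells in mouse embryonic stem cell (mESC) cultures exposed to retinoic acid (RA) for 60 h, 72 h and 96 h were examined as single cells. A well of the single-cell plates counted as ectoderm-like when it held more than 2000 unique molecular identifiers (UMIs, the tags by which each captured mRNA molecule is counted once) and met both of the following limits. The basement membrane genes Sparc, Col4a1, Col4a2, Lama1, Lamb1 and Lamc1 made up less than 0.75% of its UMIs, and Crabp1, Crabp2, Prtg, Ccnd2 and Cd24a together had at least 3 UMIs. The wells were thus chosen by the measured UMIs of these 11 genes, which are left out of the gene comparisons between wells. They were not removed from the counts of genes in bulk libraries. The rule found 444 ectoderm-like wells among 645 kept wells of the 3 plates and among 2448 kept wells of all 9 plates.

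The study followed E14 mESCs, a feeder-free line kept in 2i/LIF medium (inhibitors of MEK and GSK3 with the cytokine LIF), through 96 h of differentiation. At 0 h the cells came straight from 2i/LIF, and all later cells had been moved to N2B27 medium without inhibitors or LIF, with 0.25 µM all-trans RA, which was renewed at 48 h. Each of the 9 times is 1 culture sorted into 1 plate of 384 wells, so no test was run on wells, and all comparisons with 0 h share the same plate. Replicated bulk libraries, 2 for each group, were made from ectoderm-like cells sorted at 96 h as CD24+/PDGFRA-, from extraembryonic endoderm (XEN)-like cells sorted at 96 h as PDGFRA+/CD24-, and from mESCs in 2i/LIF.

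RA binds nuclear receptors that sit on response elements in the DNA, and it turns on a known set of genes, among them Hox genes and genes that break RA down. In the embryo RA patterns the hindbrain and spinal cord, where anterior Hox genes and their TALE homeobox partners set the position of neural progenitors along the body axis. Neural progenitors share the SoxB1 factors Sox1, Sox2 and Sox3 and the filament protein nestin (Nes). Extraembryonic endoderm, which also arises in RA-treated mESC cultures, secretes a basement membrane, and wells at or above the matrix limit are called matrix-rich here.

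Ectoderm-like wells were most of the plate at 60 h and 72 h and a minority at 96 h. They were 220 of 273 kept wells at 60 h (80.6%, exact 95% interval 75.4% to 85.1%), 185 of 235 at 72 h (78.7%, 72.9% to 83.8%) and 39 of 137 at 96 h (28.5%, 21.1% to 36.8%). Matrix-rich wells made up 1.83%, 7.66% and 59.1% of the same plates, and the other wells were of neither kind. At 0 h the rule was met by 19 of 282 wells (6.74%), and these were deep wells with a median of 19065 UMIs. All intervals given for wells cover counting error only, not the spread between cultures.

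Both limits run through a continuum of wells. Exactly 3 UMIs of the ectoderm genes were held by 26, 12 and 2 of the members at 60 h, 72 h and 96 h, and 24, 14 and 11 unchosen wells had exactly 2. Matrix genes took a median of 0.0783%, 0.0924% and 0.307% of a member's UMIs, and at 96 h no member was below 0.154%. Of the matrix-rich wells 1, 11 and 45 also had at least 3 ectoderm UMIs. Members held a median of 4745.5, 3984 and 4786 UMIs, against 3938.5 in the 0 h wells, and 11 members at 60 h and 6 at 72 h held over 20000. Summed over members the depth was 1518210, 1114802 and 194079 UMIs, so the 96 h values are the least precise. The tables name wells by their position on the plate, so barcodes shared between plates could not be counted, and no doublet caller was run because cells had been sorted singly.

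**Figure D1:**
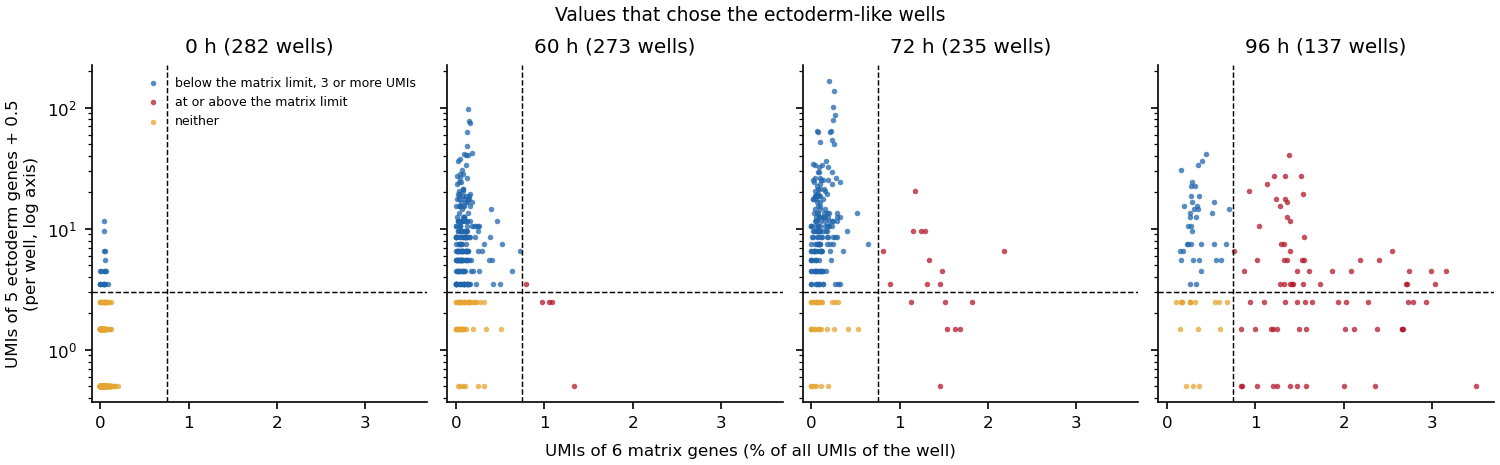
Each point is 1 well with more than 2000 UMIs at 0 h, 60 h, 72 h or 96 h, by the share of its UMIs from the 6 matrix genes (x axis, percent) and the UMIs of the 5 ectoderm genes (y axis, log scale, 0.5 added), with dashed lines at the limits. Blue points are the 220, 185 and 39 ectoderm-like wells, red points are matrix-rich and orange points are neither; no gap separates blue from orange points, and at 96 h the blue points sit closer to the matrix limit than at 60 h.

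Neural progenitor markers that the rule did not use were higher in ectoderm-like wells than at 0 h. All 11 of them (Sox11, Nes, Mdk, Fabp5, Hoxb2, Meis1, Sox1, Pax6, Sox3, Vim and Cdh2) were above the 0 h level at each of the 3 times, and their sum was 3.14 UMIs per 10000 UMIs at 0 h and 21.0, 26.0 and 27.3 in members. In matrix-rich wells of 96 h the sum was 15.4, and 10 of the 11 were lower there than in the members. Of 7 mESC markers, 6 were below 0 h at all 3 times and Nanog was not. Their sum was 72.9 at 0 h and 14.4, 6.76 and 5.46 in members. The label was therefore kept.

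Markers of other cell types were low but not all absent. The endoderm markers Dab2, Gata4, Gata6, Sox17 and Pdgfra summed to 2.37, 1.87 and 3.04 per 10000 in ectoderm-like wells, against 0.0265 at 0 h and 15.0 in matrix-rich wells of 96 h, and none of the 5 was at 0 in the members of 96 h. Their part in the results was not tested. The mesoderm markers T, Mixl1, Eomes and Tbx6 had 18, 21 and 0 UMIs in all members of the 3 times. The neural crest markers Sox10, Foxd3, Tfap2a, Sox9 and Snai2 summed to 0.171, 0.144 and 0.361, against 0.356 at 0 h, and Foxd3, at 0.228 at 0 h, had no UMI in members. The neuron markers Tubb3, Dcx, Stmn2 and Elavl3 summed to 0.751, 0.251 and 0.155, against 3.78 at 0 h. The surface ectoderm markers Krt8, Krt18, Epcam and Tfap2c summed to 1.55, 2.05 and 1.70, against 0.669 at 0 h and 4.40 in matrix-rich wells of 96 h. Otx2, a forebrain and epiblast factor, had no UMI in any of the 444 wells. The other post-implantation epiblast markers, Pou3f1, Fgf5 and Dnmt3b, were above 0 h at all 3 times. Pou3f1 and Fgf5 had 3 UMIs each at 96 h. The 4 epiblast markers summed to 1.11, 0.718 and 1.08 in members, against 0.504 at 0 h and 1.24 in matrix-rich wells of 96 h.

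Many genes differed from 0 h by more than 2-fold. Of 7364 genes with at least 50 UMIs on the larger side, 866 (11.8%) were higher and 518 (7.03%) were lower. For this count each of the 3 times had to be past 2-fold of the 0 h level in the same direction. The median gene was 0.26 higher on the log2 scale. The gene lists are read against these shares.

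The 28 genes of the neural progenitor list stood at 20.1 UMIs per 10000 at 0 h (95% Poisson interval 19.4 to 20.7). In ectoderm-like wells they stood at 34.7 (33.8 to 35.7) at 60 h, 47.5 (46.2 to 48.8) at 72 h and 51.1 (47.9 to 54.3) at 96 h. The list was thus 2.55 times as high at 96 h as at 0 h (2.37 to 2.73), while matrix-rich wells of 96 h stood at 28.6. Of 24 members of the list with enough UMIs, 14 were higher and 2, Sox2 and Sfrp1, were lower, with a median log2 ratio of 2.59. Single wells differed widely, with the 10th and 90th percentiles at 9.14 and 29.3 per 10000 at 0 h, 20.0 and 55.4 at 60 h and 28 and 75.9 at 96 h. The 17 wells of 96 h that were of neither kind held 55.5 per 10000 of this list, near the level of the members. In the extraembryonic endoderm list 13 of 20 genes were higher and 2 lower, with a median log2 ratio of 2.92 to 0 h. That list summed to 12.6 at 0 h, to 12.4, 13.9 and 20.6 in members and to 75.9 in matrix-rich wells of 96 h.

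Genes of the neural progenitor list differed in their timing. Fabp5, a carrier of fatty acids and retinoids, had 2 UMIs in all 0 h wells (0.0106 per 10000) and stood at 1.17, 2.39 and 3.40 per 10000 at 60 h, 72 h and 96 h. The ratio to 0 h was 110 at 60 h (30.1 to 919) and 320 at 96 h (85.2 to 2700). Thinned to 2000 UMIs per well, a Fabp5 UMI was found in 0.510% of 0 h wells, in 19.5%, 28.4% and 37.1% of members and in 13.3% of matrix-rich wells of 96 h. Without thinning the shares were 0.709% at 0 h and 40%, 47.6% and 51.3% in members. The 0 h wells, with 2 UMIs in all, are the comparison for these shares. Bulk mESC libraries held more Fabp5 than these wells, as given further on, so the size of the ratios is uncertain.

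Sox factors were higher at 96 h than at 60 h. Sox1, a SoxB1 factor of early neuroectoderm, was at 0.0106 per 10000 at 0 h and at 0.711, 0.682 and 1.49 in members, with a ratio of 2.10 between 96 h and 60 h (1.34 to 3.19). Sox11, a SoxC factor of neural progenitors and immature neurons, was at 0.0637 at 0 h and at 1.23, 1.64 and 2.99 in members. Sox2, which serves both mESCs and neural progenitors, had a course of its own. It stood at 7.00 per 10000 at 0 h, at 1.03 at 60 h and at 1.75 and 2.52 later, a ratio of 2.44 between 96 h and 60 h (1.73 to 3.38). In matrix-rich wells of 96 h Sox2 was at 0.754.

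Other genes of the list were highest at 60 h or 72 h. Pax6, a homeobox factor of neural progenitors, had no UMI at 0 h, was at 1.51 per 10000 (230 UMIs) at 60 h and was at 0.834 and 0.309 (6 UMIs) later. Its level at 96 h was 0.204 of that at 60 h (0.0741 to 0.451). Mdk, a secreted heparin-binding growth factor, was at 1.01 at 0 h and at 9.21, 10.9 and 6.75 in members. Its relative Ptn was later, with 1 UMI at 0 h (0.00531 per 10000) and 0.316, 0.655 and 1.03 per 10000 in members. Cdh2, the N-cadherin of neural epithelium, was at 0.0212 at 0 h and at 1.26, 2.64 and 2.52. By contrast Cdh1, the E-cadherin of mESCs, was at 2.74 at 0 h and at 0.534, 0.305 and 0 in members, where 3 counts over the 96 h members would be 0.155 per 10000.

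**Figure D2:**
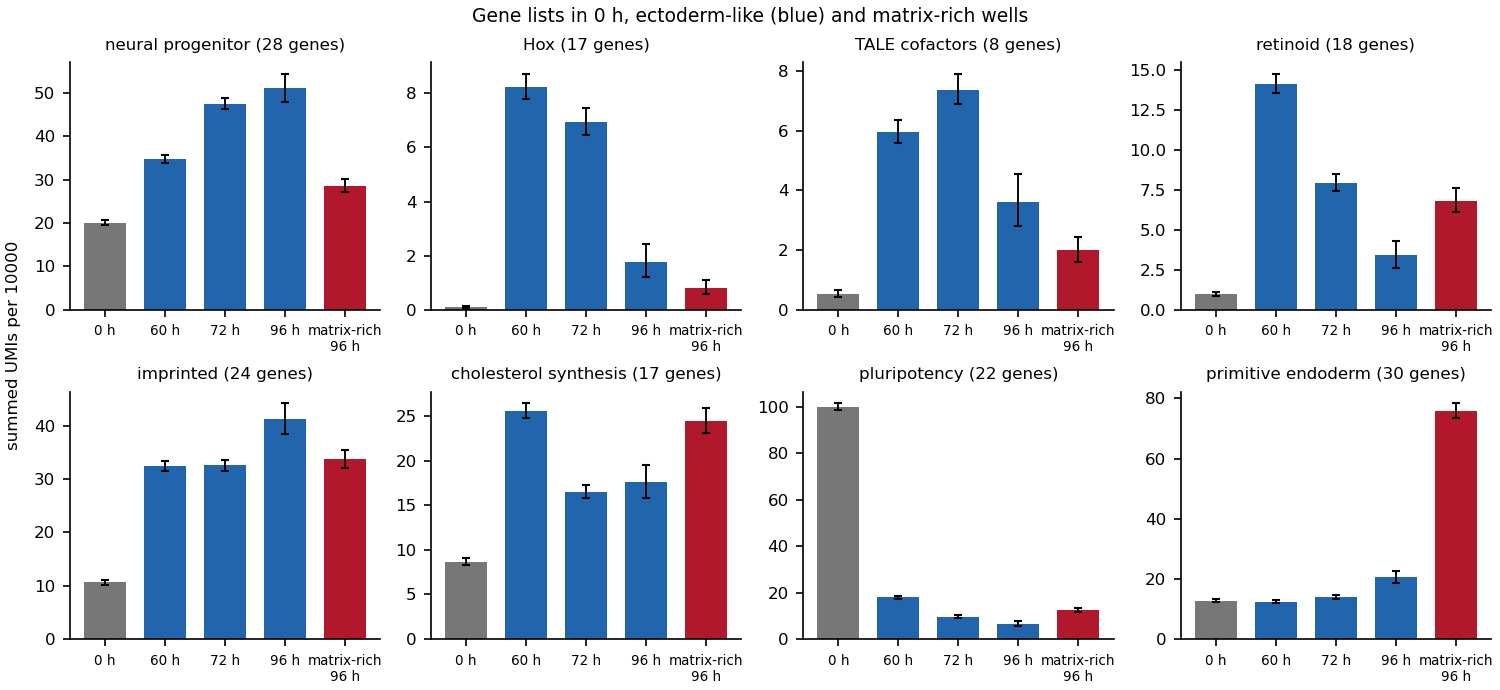
Bars give the summed level of 8 gene lists (UMIs per 10000 UMIs, linear axes from 0) in 0 h wells, in ectoderm-like wells at 60 h, 72 h and 96 h and in matrix-rich wells of 96 h, with exact 95% Poisson intervals as error bars. The neural progenitor list goes from 20.1 to 51.1, the Hox and retinoid lists are highest at 60 h, and the pluripotency list goes from 100.1 to 6.54.

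Hox genes were nearly silent at 0 h, high at 60 h and lower again at 96 h. The 17 anterior and central Hox genes summed to 0.0849 UMIs per 10000 at 0 h, 8.25 (7.80 to 8.72) at 60 h, 6.94 (6.46 to 7.45) at 72 h and 1.75 (1.21 to 2.45) at 96 h. That is 97.1 times the 0 h level at 60 h (59.6 to 170) and 20.6 times at 96 h (11.1 to 40). A Hox UMI was found in 13 of 282 wells at 0 h, 200 of 220 members at 60 h, 145 of 185 at 72 h and 16 of 39 at 96 h. Of 11 Hox genes with enough UMIs 7 were higher than at 0 h over all 3 times, and these were Hoxa5, Hoxb2, Hoxb3, Hoxb4, Hoxb5, Hoxb8 and Hoxc5. At 96 h this rests on few counts, since the 17 genes held 34 UMIs in members, of which Hoxb2 had 10 and Hoxb5 had 1.

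Hoxb1 lies at the 3′ end of its cluster, where RA acts first in the embryo, and it was not seen at 96 h. Hoxb1 had no UMI at 0 h or at 96 h and stood at 1.40 and 0.359 in between, at least 9.08-fold lower at 96 h than at 60 h. Hoxb2, the neighbour of Hoxb1, was still present, with 0.0159 per 10000 at 0 h and 1.03, 1.31 and 0.515 in members. Hoxb5 was at 1.13, 0.960 and 0.0515 (1 UMI), a ratio of 0.0457 between 96 h and 60 h (0.00115 to 0.258). Earlier in the course, over all kept wells, Hoxb1 stood at 0.183, 0.786 and 1.77 per 10000 at 24 h, 36 h and 48 h.

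TALE cofactors, which bind DNA together with Hox proteins, were less transient. All 4 with enough UMIs, among them Meis1 and Meis2, were higher than at 0 h. The list of 8 genes summed to 0.531 at 0 h and to 5.95, 7.37 and 3.61 in members. Meis1 was at 0.0318 at 0 h and at 0.830, 1.44 and 1.34 in members. Meis2 was over 2-fold lower at 96 h than at 60 h, with 3.33, 3.39 and 0.876 per 10000 and a ratio of 0.263 (0.152 to 0.426).

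Genes of the retinoid pathway other than Crabp1 and Crabp2 were highest at 60 h. The 18 genes summed to 0.987 UMIs per 10000 at 0 h, 14.2 (13.6 to 14.8) at 60 h, 7.97 at 72 h and 3.40 (2.63 to 4.33) at 96 h, so that the list was 14.3 times the 0 h level at 60 h and 3.44 times at 96 h. Of 10 genes with enough UMIs 6 were higher than at 0 h over all times, among them Cyp26a1, Cyp26b1, Stra6 and Rdh10. Rarb, Cyp26a1, Stra8 and Dhrs3 were each over 2-fold lower at 96 h than at 60 h.

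Stra8, an RA-induced gene known for entry into meiosis, showed the steepest course. Over all kept wells it stood at 0.189, 0.814, 2.45, 2.92 and 4.25 per 10000 at 6 h, 12 h, 24 h, 36 h and 48 h, against 0.0478 at 0 h. In ectoderm-like wells Stra8 was at 4.68 and 1.13 at 60 h and 72 h and at 0.0515 (1 UMI) at 96 h, a ratio of 0.0110 between 96 h and 60 h (0.000279 to 0.0616). Thinned to 2000 UMIs, a Stra8 UMI was found in 0.706% of 0 h wells and in 47.6%, 16.7% and 1.03% of members. The unthinned shares in members were 68.2%, 30.3% and 2.56%. At 96 h the share was thus near that of 0 h, and matrix-rich wells of 96 h had no Stra8 UMI.

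Enzymes and carriers of retinoids were ordered differently. Dhrs3, a reductase that turns retinaldehyde back into retinol, was at 0.308 at 0 h and at 2.44, 1.99 and 0.0515 (1 UMI) in members. Cyp26a1, the P450 enzyme that degrades RA, had 3 UMIs at 0 h (0.0159 per 10000) and stood at 3.08, 1.24 and 1.08 in members, a ratio to 0 h of 194 at 60 h (65.8 to 942). Rdh10, which makes retinaldehyde, was instead highest at 96 h, with 0.0159 at 0 h and 0.257, 0.260 and 0.927 (18 UMIs) in members. The receptor gene Rarb, itself a classical RA target, had no UMI at 0 h, was at 0.672 and 0.753 at 60 h and 72 h and had none at 96 h, where the interval of its ratio to 60 h reached up to 0.288. Matrix-rich wells carried more Cyp26a1 than members, with 6.45 per 10000 at 72 h and 4.46 at 96 h, and the ratio of members to matrix-rich wells was 0.243 at 96 h (0.147 to 0.380).

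RA response elements are pairs of hexamers that RA receptors bind, and the promoters of Cyp26a1 and Rarb are shown because both genes were at or near 0 at 0 h and present at 60 h, and both carry such a pair. The hexamer AGGTCA was searched together with its variant AGTTCA, with the variant GGGTCA and with the variant GGTTCA, in any pairing, on both strands, as direct repeats with 5 bases between them, in RefSeq promoters of GRCm38.p6 that span 250 bases before to 50 bases after a gene's start. A repeat was found in 32 of 32851 promoters (0.0974%), in 2 of 14 genes of the retinoid list, in 0 of 10 Hox genes, in 0 of 5 TALE genes and in 0 of 17 genes of the neural progenitor list that had a promoter entry. The 250 bases before each start are printed 5′ to 3′ on the gene's strand, with the repeat in capitals. That of Cyp26a1 is chr19:37697558-37697807 on the plus strand, and its repeat reads on the other strand and lies 32 to 16 bases before the start. That of Rarb is chr14:16575477-16575726 on the minus strand, and its repeat lies 53 to 37 bases before the start. A match is a description of letters, not a measured site.
Cyp26a1: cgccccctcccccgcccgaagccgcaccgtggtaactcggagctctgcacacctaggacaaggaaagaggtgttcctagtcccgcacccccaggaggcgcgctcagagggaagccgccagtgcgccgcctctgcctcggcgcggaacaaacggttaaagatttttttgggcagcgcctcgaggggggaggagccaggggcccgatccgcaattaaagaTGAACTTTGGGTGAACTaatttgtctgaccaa
Rarb: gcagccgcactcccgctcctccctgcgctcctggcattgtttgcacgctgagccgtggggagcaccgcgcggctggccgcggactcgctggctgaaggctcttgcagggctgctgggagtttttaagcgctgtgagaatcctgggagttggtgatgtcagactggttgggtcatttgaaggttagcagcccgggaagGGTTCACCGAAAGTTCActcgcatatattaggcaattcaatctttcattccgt

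**Figure D3:**
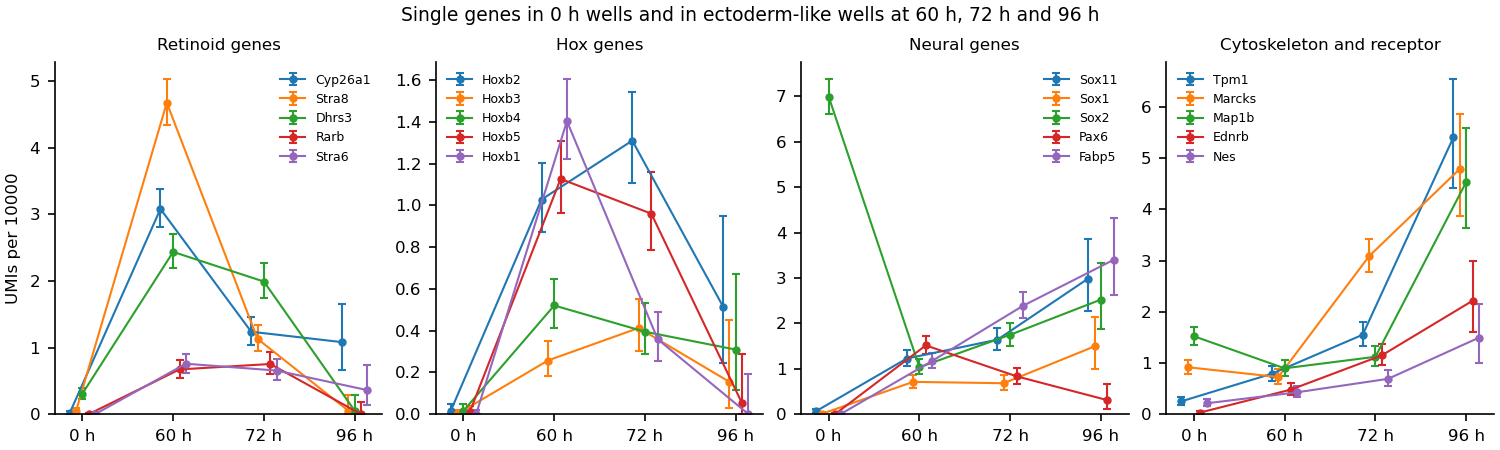
Levels of single genes (UMIs per 10000 UMIs, y axis) are plotted for 0 h wells and for ectoderm-like wells of 60 h, 72 h and 96 h (x axis), with exact 95% Poisson intervals, in panels for retinoid, Hox, neural and cytoskeletal genes. Stra8 and Dhrs3 are at 0.0515 at 96 h, Hoxb1 is at 0 there, and Sox11, Fabp5, Tpm1 and Marcks are highest at 96 h.

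The genes with the largest ratios to 0 h held neural, imprinted and metabolic genes beside RA targets. By a fixed rule, in which a count of 0 was raised to 3 counts and counts of 1 and 2 were not, the 12 largest were Fabp5, Emb, Gm21293, Arg1, Peg10, Tshz1, Ptn, Peg3as, Mpdz, Plat, Cyp26a1 and Flrt3, whose mean ratio over the 3 times ran from 109 to 219 and rests on 1 to 4 UMIs at 0 h. The order depends on that rule: with counts of 1 and 2 raised to 3 as well, 7 of the 12 stayed among the largest, led by Peg10, and Gm21293, Arg1, Ptn, Mpdz and Plat did not. Emb, which encodes the adhesion glycoprotein embigin, was at 0.0106 at 0 h and at 2.05, 2.50 and 1.60 in members, and at 2.05 in matrix-rich wells of 96 h. Arg1, the arginase that splits arginine into ornithine and urea, had 1 UMI at 0 h and was at 1.36, 1.14 and 0.464 in members. Tshz1, a zinc-finger transcription factor, was at 0.0159 at 0 h and at 1.88, 3.12 and 1.03. Flrt3, an adhesion protein of the fibronectin-leucine-rich family, was at 3.19, 2.27 and 1.49 in members but at 5.30 in matrix-rich wells of 96 h.

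Many imprinted genes were higher than at 0 h. The 24 genes summed to 10.6 UMIs per 10000 at 0 h and to 32.4, 32.5 and 41.2 (38.4 to 44.2) in members, with 33.7 in matrix-rich wells of 96 h. The median well held 9.10 at 0 h, 30.3, 31.9 and 30.4 in members and 30.1 in matrix-rich wells of 96 h. The typical member of 96 h was thus not above that of 60 h or the matrix-rich wells, and the highest member of 96 h held 125. Of 15 genes with enough UMIs 10 were higher than at 0 h and none lower. Peg10, which derives from a retrotransposon, had 3 UMIs at 0 h and stood at 2.91, 3.46 and 1.91. Mest, a hydrolase-like protein of embryonic growth, was at 0.101 at 0 h and at 3.97, 3.94 and 7.27 in members, against 2.30 in matrix-rich wells of 96 h. Cdkn1c, an inhibitor of cyclin-dependent kinases, was at 0.239 at 0 h and at 3.28, 1.65 and 1.65, and Grb10, a brake on insulin signalling, at 0.748 and then 1.82, 2.73 and 3.35. Igf2, the fetal growth factor, was over 2-fold lower at 96 h than at 60 h, with 2.67, 1.53 and 0.876. Reads of Peg3as and Peg3, and of Copg2 and Mest, overlap on opposite strands, and the counting is not stated to use strand.

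Pluripotency genes were lower than at 0 h. The 22 genes summed to 100.1 UMIs per 10000 at 0 h and to 18.0, 9.55 and 6.54 (5.46 to 7.79) in members, a level 5.57, 10.5 and 15.3 times lower, and 17 of 21 with enough UMIs were lower and none higher. Tfcp2l1, a transcription factor of the naive state, was at 8.91 at 0 h and at 0.204, 0.0807 and 0.0515 (1 UMI) in members. Dppa5a, an RNA-binding protein of mESCs, was at 46.5 at 0 h and at 7.13, 2.71 and 0.618. Fgf4, the growth factor that mESCs secrete, had 457 UMIs at 0 h (2.43 per 10000) and none in any of the 444 wells, at least 36.2-fold lower.

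Further genes of mESCs were among the 12 smallest ratios, which by the same rule were Tfcp2l1, Nupr1, Lefty2, Esrrb, Tdgf1, Tdh, Klf2, Jam2, Fgf4, Alg13, Mpzl2 and Gm20362, of which all but the last 3 stayed with counts of 1 and 2 raised to 3. Esrrb, a naive-state nuclear receptor, was at 4.02 per 10000 at 0 h and had 2 UMIs in all members of 60 h and none later. Tdgf1, the co-receptor of Nodal, was at 4.11 at 0 h and at 0.00659, 0.0449 and 0, and Tdh, the threonine dehydrogenase of mESCs, at 5.62 and then 0.165, 0.0269 and 0. Nanog departed from its partners, with 3.37 at 0 h and 6.43, 3.42 and 4.53 in members. Nanog has pseudogene copies of near-identical sequence, so its counts are uncertain.

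Lists of general cell functions differed from 0 h by unequal amounts. Genes of cholesterol synthesis summed to 8.70 per 10000 at 0 h and to 25.7, 16.6 and 17.6 in members, 2.95 times the 0 h level at 60 h (2.78 to 3.13), with 8 of 17 higher. Glycolysis genes stood at 62.1 at 0 h and at 62.6, 62.0 and 56.1, but within that list the glucose transporter Slc2a1 was at 0.600 at 0 h and at 10.4, 4.18 and 4.53 in members. Mitosis genes stood at 51.7 at 0 h and at 67.2, 66.4 and 61.9, and DNA replication genes at 25.3 and then 32.6, 35.7 and 27.1. In bulk the cholesterol list stood at 19.5 and 21.3 in sorted ectoderm-like cells and at 19.8 and 13.0 in mESCs. By the edgeR test described below, 0 of its 17 genes rose against mESCs and 1 fell. Of 32 mitosis genes 0 rose and 0 fell. Of 27 DNA replication genes 1 rose and 2 fell, and of 18 glycolysis genes 1 rose and 6 fell. Over all tested genes 9.82% rose and 9.27% fell. Adhesion and cytoskeleton genes stood at 70.0 at 0 h and at 108, 123 and 129.8, and post-implantation epiblast genes at 0.839 and then 2.75, 2.07 and 3.04. These 2 lists were higher at every time, as were the cholesterol, mitosis and DNA replication lists. In matrix-rich wells of 96 h the adhesion and cytoskeleton list stood at 146 and the epiblast list at 2.28. In bulk the adhesion and cytoskeleton list stood at 170 and 216 in sorted ectoderm-like cells and at 164 and 131 in mESCs. The epiblast list stood at 1.30 and 1.49 and at 0.512 and 0.409 in the same order. The surface ectoderm list summed to 3.63 at 0 h and to 3.31, 3.04 and 2.47 in members. Cdh1 held 2.74 of the 0 h level, and of 6 genes with enough UMIs Krt8, Krt18 and Cldn6 were higher than at 0 h and Cdh1 lower. Krt18, a keratin of simple epithelia, had no UMI at 0 h and was at 0.652, 1.35 and 0.979 in members, and its partner Krt8 was at 0.0425 and then 0.435, 0.538 and 0.618. The list of postmitotic neurons summed to 3.95 at 0 h and to 1.10, 0.547 and 0.979. Stmn2, a tubulin-binding protein of neurons, accounted for much of the 0 h level of the last list, with 3.64 at 0 h and 0.560, 0.152 and 0 in members.

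Between 60 h and 96 h more genes were lower than higher. Of 4644 genes with at least 50 UMIs on the larger side, 278 (5.99%) were over 2-fold higher and 922 (19.9%) over 2-fold lower at 96 h, with a median log2 ratio of -0.13. The minimum of 50 UMIs is a level of 0.329 per 10000 at 60 h and of 2.58 at 96 h, so weak genes could enter this comparison only from the 60 h side. In the neural progenitor list 9 of 20 were higher (Sox1, Sox2, Sox11, Nes, Cdh2, Fabp5, Hes1, Marcks and Ednrb) and 2 were lower (Pax6 and Dbi). Hox and retinoid genes entered from the 60 h side alone, so no count is given for them. Without the wells that held many 2-cell transcripts, described further on and deeper than the rest, 167 genes were higher and 590 lower, and without wells over 20000 UMIs 187 and 621. The parts of depth and of these transcripts were not told apart.

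The largest ratios of 96 h to 60 h included genes of the cytoskeleton. By the rule the 8 were Tpm1, Marcks, B230219D22Rik, Map1b, Tmem123, Spag9, Ahnak and Ednrb, with ratios from 4.61 to 6.84. Tpm1, a tropomyosin that stabilizes actin filaments, was at 0.249 at 0 h and at 0.790, 1.55 and 5.41 in members, a ratio of 6.84 between 96 h and 60 h (5.22 to 8.97). Marcks, an actin-binding target of protein kinase C, was at 0.918 at 0 h and at 0.725, 3.09 and 4.79. Map1b, which binds microtubules in growing neurites, was at 1.52 at 0 h and at 0.896, 1.12 and 4.53. Ednrb, the endothelin receptor of neural crest and radial glia, was at 0.0318 at 0 h and at 0.481, 1.15 and 2.22. In matrix-rich wells of 96 h Tpm1 stood at 2.22, Marcks at 1.70, Map1b at 2.66 and Ednrb at 1.05, all lower than in members.

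By the same rule the 8 smallest ratios of 96 h to 60 h were those of Stra8, Dhrs3, Gm21293, Sfrp5, 2310039L15Rik, Mt2, Mt1 and Hoxb5. With counts of 1 and 2 raised to 3 as well, 5 of them stayed and Gm21293, Sfrp5 and Hoxb5 did not, while all 8 of the largest stayed. Mt1 and Mt2 encode metallothioneins, which bind zinc and copper. Mt1 was at 15.7 per 10000 at 0 h and at 2.99, 1.70 and 0.103 (2 UMIs) in members, and Mt2 at 11.6 and then 3.04, 1.08 and 0.103. Their ratios between 96 h and 60 h were 0.0345 (0.00416 to 0.125) and 0.0339 (0.00409 to 0.123). Sfrp5, a secreted inhibitor of Wnt, was transient, with 2 UMIs at 0 h and 2.03, 0.996 and 0.0515 (1 UMI) in members.

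A few genes linked to mesenchyme and neural crest were higher at 96 h. Zeb2, a zinc-finger repressor of E-cadherin, had no UMI at 0 h and stood at 0.599, 0.305 and 1.13 in members, against 0.168 in matrix-rich wells of 96 h. Twist1, a bHLH factor of cranial mesenchyme, had 1 UMI at 0 h and stood at 0.151, 0.395 and 1.03 (20 UMIs), with 0.168 in matrix-rich wells. Msx1, a homeobox factor of the dorsal neural tube and crest, was highest at 72 h, with 0.310, 0.951 and 0.0515 (1 UMI). The whole neural crest list of 15 genes stood at 0.579 at 0 h and at 1.54, 2.36 and 3.30 in members. Only Msx1, Twist1 and Zeb2 had enough UMIs to be compared singly, and these 3 were higher than at 0 h. With no UMI or 1 UMI at 0 h, Zeb2 and Twist1 could enter only through the members and could not have been lower. That count therefore says nothing of the rest of the list. The crest markers Sox10, Foxd3, Tfap2a, Sox9 and Snai2 summed to 0.171, 0.144 and 0.361 in members, against 0.356 at 0 h.

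Against matrix-rich wells of the same time few genes separated the wells at all 3 times. Of 6889 genes, 35 (0.508%) were over 2-fold higher in ectoderm-like wells and 127 (1.84%) over 2-fold lower, with a median log2 ratio of -0.26. Matrix-rich wells were only 5 at 60 h and 18 at 72 h, which limits this comparison, and without 96 h the counts were 183 and 232. With counts of 1 and 2 raised to 3 the genes higher were 16. Of the 127 lower genes 16 were in the list of extraembryonic endoderm genes, of which 23 had enough UMIs. Cubn, an endocytic receptor of visceral endoderm, was at 0.395, 0.664 and 0.361 in members, against 9.92 and 2.56 in matrix-rich wells of 72 h and 96 h. Srgn, a secreted proteoglycan, was at 0.296, 0.233 and 0.773, against 4.40 at 96 h.

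The genes higher than in matrix-rich wells were of different kinds. In the neural progenitor list Cdh2, Ncam1 and Nr2f1 were higher, 3 of 24, and in the imprinted list Grb10, Peg10 and Cdkn1c, 3 of 16. Gas1, a co-receptor of hedgehog ligands, had no UMI at 0 h and stood at 0.948, 1.50 and 1.39 in members, against 0.251 in matrix-rich wells of 96 h. Id3, an inhibitor of bHLH factors and a target of BMP signals, was at 0.0265 at 0 h and at 1.46, 2.52 and 2.58, against 0.817. The other 6 of the 8 largest ratios, Gm20767, Gm7102, Adamts2, Gm21293, Dcdc2c and 2310039L15Rik, followed the wells with 2-cell transcripts at 60 h, where 78.6% of their UMIs in members lay in 20 wells. With counts of 1 and 2 raised to 3, 4 of the 8 stayed among the largest and Adamts2, Gm21293, Gas1 and Id3 did not.

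Genes of the 2-cell-like state were concentrated in a small number of wells. The 2-cell-like state is a rare and passing condition of mESCs in which genes of the 2-cell embryo such as the Zscan4 cluster are on. Members summed to 8.93, 2.13 and 0.258 UMIs of the 10-gene list per 10000 at 60 h, 72 h and 96 h, against 0.181 at 0 h. At 60 h 20 of 220 members with at least 10 such UMIs held 1111 of 1356 UMIs of the list (81.9%), and the highest well held 470 of them, or 176 per 10000. At 72 h 6 members held 102 of 237 (43.0%), and at 96 h 5 UMIs lay in 4 wells. The Zscan4 genes are near-identical copies, so counts for its single members are uncertain.

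These wells were deeper than the other members of 60 h, with a median of 14989.5 UMIs against 4477 in the other 200. Neural progenitor genes stood at 31.7 against 35.8 per 10000, pluripotency genes at 18.4 against 17.8, Hox genes at 8.03 against 8.32 and retinoid genes at 14.1 against 14.2. Extraembryonic endoderm genes stood at 14.7 against 11.5. The part of depth in this result was not tested. Among wells of neither kind the list stood at 16.8 at 60 h and 43.9 at 72 h, where 4 of 32 wells held 485 of 498 UMIs, while matrix-rich wells of 96 h stood at 0.147.

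**Figure D4:**
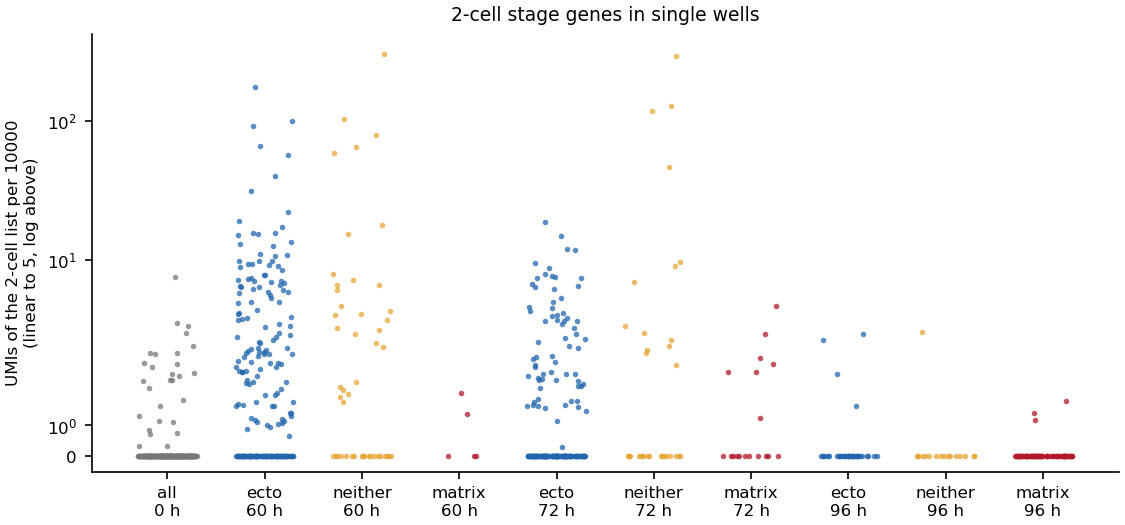
Each point is 1 well, by its UMIs of the 10 genes of the 2-cell list per 10000 UMIs (y axis, linear up to 5 and logarithmic above), for 0 h wells and for ectoderm-like, matrix-rich and other wells of 60 h, 72 h and 96 h. At 60 h 125 of 220 ectoderm-like wells hold at least 1 UMI of the list, and the 20 wells with at least 10 hold 81.9% of its UMIs in members of that time.

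Wells of members differed more from each other than 0 h wells. With 2000 UMIs drawn per well, the Fano factor (variance over mean) of 1057 genes had a median of 1.30 in 0 h wells and of 1.42, 1.58 and 1.65 in members of 60 h, 72 h and 96 h, and 35, 72, 141 and 302 of these genes were above 2. Above 1.5 were 146, 386, 669 and 664, so that count was not larger at 96 h than at 72 h. The number of wells differed between these groups, and its part was not tested.

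Sorted cells gave the comparison with replicates. Bulk UMI counts of sorted ectoderm-like cells of 96 h, XEN-like cells and mESCs were tested with edgeR's quasi-likelihood test and Benjamini-Hochberg adjustment over 8945 genes. Cd24a and Pdgfra encode the gate. Neither they nor the 11 genes of the well rule were removed from the counts of this test. Against mESCs 878 genes (9.82%) rose and 829 (9.27%) fell, with a median log2 difference of 0.05, and against XEN-like cells 511 (5.71%) were higher and 624 (6.98%) lower, with a median of 0.06. The methods of the study call the libraries of these groups biological replicates, and with 2 for each group the p-values rest on a spread estimated from 6 libraries. In bulk samples fewer cells of a type and less RNA per cell cannot be told apart.

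The libraries of the sorted ectoderm-like cells differed from each other. The second held 23.3 UMIs per 10000 of the extraembryonic endoderm list against 7.45 in the first, and 1.71 against 5.80 of the Hox list. Dab2 shows this, with 30.6 and 242 CPM (counts scaled to the library total) in the ectoderm-like libraries against 1260 and 950 in the XEN-like ones. The matrix genes took 0.0430% and 0.143% of the UMIs, against 1.02% and 0.528% in XEN-like and 0.0275% and 0.0193% in mESC libraries. The part of endoderm RNA in the second library was not tested, and without the first library 551 genes rose and 459 fell against mESCs and 131 and 131 were called against XEN-like cells.

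Genes that differed from 0 h in wells seldom went the opposite way in sorted cells. Of the 866 genes higher in wells 747 were tested, and 331 (44.3%) rose against mESCs, which is 37.7% of all genes that rose. By edgeR 0 of the 747 fell at an adjusted p under 0.05 and 4 at an unadjusted one, and by DESeq2 0 fell. Of the 518 lower in wells 472 were tested, and 301 (63.8%) fell and 2 rose. For the comparison with matrix-rich wells 19 of 34 tested genes were higher in sorted ectoderm-like than in XEN-like cells and 86 of 125 were lower. None went the opposite way by edgeR, adjusted or not (0 of 34 and 0 of 125), or by DESeq2. Among the 12 genes with the largest ratios 11 rose in sorted cells, all but Gm21293 (adjusted p = 0.0518 by edgeR), and all 11 tested of the 12 smallest fell.

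In the neural progenitor list 17 of 26 genes rose against mESCs, 2 fell, and 22 were higher and 1 lower than in XEN-like cells. In the extraembryonic endoderm list, which holds the gate gene Pdgfra, 12 of 26 rose against mESCs and 2 fell. Against XEN-like cells 0 of that list were higher and 18 lower. Ptn was at 0 and 0 CPM in mESCs, 117 and 67.2 in ectoderm-like and 0.508 and 0 in XEN-like cells, so the groups did not overlap (edgeR, adjusted p = 2.75e-05 against mESCs and 0.000348 against XEN-like cells). Ednrb was at 0 and 0.435 CPM in mESCs, 127 and 116 in ectoderm-like and 1.02 and 0 in XEN-like cells, a log2 difference of 8.45 ± 0.64 (SE) from mESCs (edgeR, adjusted p = 1.47e-05). Both genes were near 0 outside the ectoderm-like cells. Sox11 was at 0 and 1.31, 64.5 and 69.8, and 3.05 and 1.82 CPM in the same order, with log2 differences of 6.24 ± 0.61 and 4.59 ± 0.54 (adjusted p = 5.99e-05 and 0.000902 by edgeR).

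Fabp5 was present in the mESC libraries too, above its level in 0 h wells, and rose less in bulk than in wells. It was at 63.4 and 19.2 CPM in mESCs, 317 and 528 in ectoderm-like and 56.4 and 51.0 in XEN-like cells, and rose by 3.07 ± 0.47 on the log2 scale (edgeR, adjusted p = 0.00102). Sox2 was at 85.7 and 131 CPM in mESCs, 55.0 and 50.4 in ectoderm-like and 1.52 and 3.65 in XEN-like cells. Its lower level than in mESCs (-1.36 ± 0.34, edgeR adjusted p = 0.0166) was lost under 3 alternatives, where adjusted p reached 0.106, while its difference from XEN-like cells was 4.36 ± 0.51 (edgeR, adjusted p = 0.00086). Mdk was at 86.2 and 105, 1054 and 534, and 429 and 166 CPM, and it rose by 2.72 ± 0.41 against mESCs (edgeR, adjusted p = 0.000962).

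Hox genes were above mESCs in sorted cells. All 5 tested Hox genes, among them Hoxb2, Hoxb3 and Hoxb4, rose against mESCs. Hoxb2 was at 1.31 and 2.61 CPM in mESCs, 389 and 117 in ectoderm-like and 5.59 and 4.56 in XEN-like cells, a rise of 6.63 ± 0.64 (edgeR, adjusted p = 5.17e-05), and Meis1 rose by 5.85 ± 0.43 (edgeR, adjusted p = 1.24e-05). Stra8, at 21.0 and 5.22 CPM in mESCs and 82.8 and 9.69 in ectoderm-like cells, and Dhrs3, at 73.4 and 4.52 in ectoderm-like cells, passed no test (edgeR, adjusted p = 0.265 and 0.134), and in each the first library was the high one.

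Cyp26a1 separated the sorted lineages. It was at 0.875 and 0.871 CPM in mESCs, 32.2 and 21.3 in ectoderm-like and 270 and 148 in XEN-like cells. It rose against mESCs by 4.53 ± 0.53 (edgeR, adjusted p = 0.000204) and was lower than in XEN-like cells (log2 difference -3.05 ± 0.34, adjusted p = 0.000802), a call kept under all 11 alternatives. Rarb rose against mESCs as well (0 and 0 against 25 and 9.05 CPM, edgeR adjusted p = 0.00194) but its difference from XEN-like cells, at 16.8 and 5.47 CPM, was 0.45 (adjusted p = 0.677). Rdh10 was higher than in both, by 4.57 and 2.08 (edgeR, adjusted p = 0.000847 and 0.0269).

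Imprinted genes were called against both groups. Of 19 tested 12 rose against mESCs and 10 were higher than in XEN-like cells by edgeR, and 2 had lower values than mESCs at an unadjusted p under 0.05. Mest was at 31.1 and 10.0 CPM in mESCs, 441 and 439 in ectoderm-like and 27.4 and 18.2 in XEN-like cells, differences of 4.12 ± 0.43 and 4.15 ± 0.43 (edgeR, adjusted p = 8.34e-05 and 0.000678). Cdkn1c was at 1.75 and 0.871, 34.5 and 31.7, and 3.56 and 2.73 CPM, and Grb10 at 3.94 and 16.1, 109 and 131, and 11.7 and 9.12. In these 3 genes the ectoderm-like libraries lay above every other library, and the share of all tested genes with that order was not counted. Tpm1, which had the largest ratio of 96 h to 60 h in wells among genes with enough UMIs, was at 36.7 and 22.6, 325 and 423, and 126 and 137 CPM and was higher than in both groups (edgeR, adjusted p = 5.38e-05 and 0.011).

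Genes of the mESC state fell in 19 of 21 tested cases, and by edgeR 0 rose at an adjusted or an unadjusted p under 0.05. Tdgf1 was at 387 and 496 CPM in mESCs and at 5.56 and 1.94 in ectoderm-like cells, and Klf2, a naive-state factor, at 224 and 444 and at 3.89 and 5.17 (edgeR, adjusted p = 8.96e-06 and 1.72e-05). Nanog was again apart, at 163 and 155 CPM in mESCs and 205 and 78.8 in ectoderm-like cells (edgeR, adjusted p = 0.41). Gap43, a protein of growing axons, rose by 5.82 ± 0.84 on the log2 scale, from 0 and 0.435 to 14.5 and 24.6 CPM (edgeR, adjusted p = 0.000733), while Stmn2 fell (adjusted p = 0.000346).

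**Figure D5:**
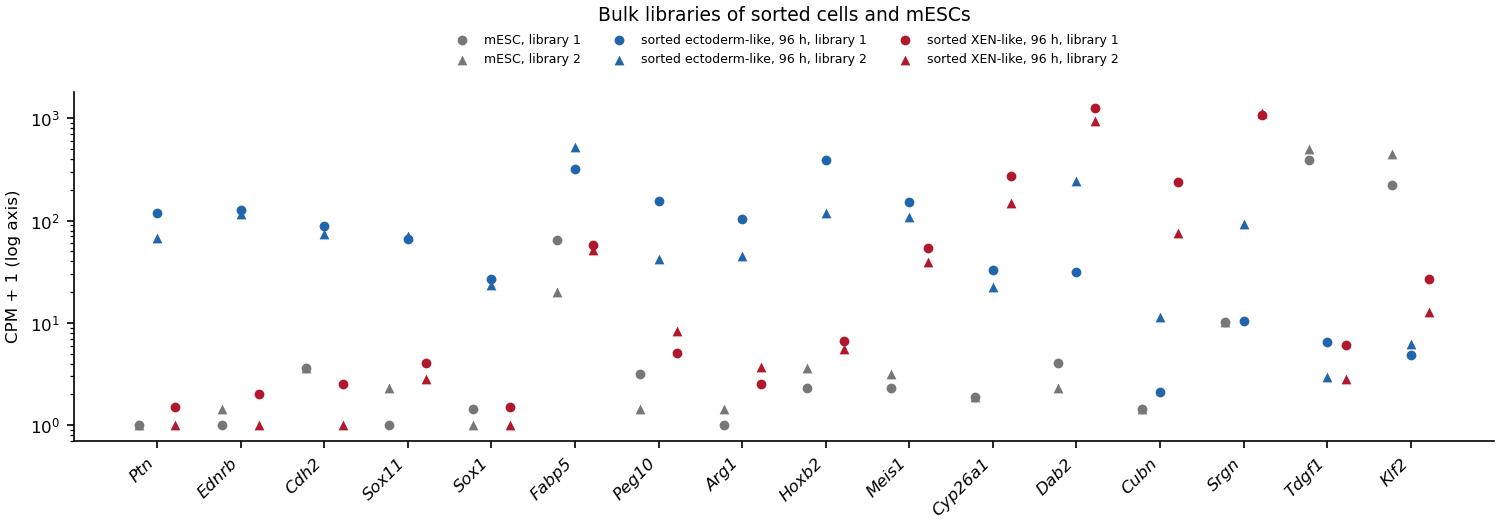
Points give CPM plus 1 (log axis) of 16 genes in the 6 bulk libraries, 2 each of mESCs, sorted ectoderm-like and sorted XEN-like cells of 96 h. Ptn, Ednrb, Cdh2, Sox11 and Sox1 are high in both ectoderm-like libraries and near 0 elsewhere, Cyp26a1 is highest in XEN-like cells, and Dab2 lies apart in the ectoderm-like libraries (30.6 and 242 CPM).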

How the data were processed

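Single cells were measured by SCRB-seq, a plate-based 3′ method with UMIs, in 9 plates of 384 wells, and sorted populations by bulk 3′ RNA-seq with UMIs. Reads were mapped by the authors to RefSeq mRNAs of the mouse, mitochondrial sequence and spike-ins (bwa 0.7.4), who deposited the count of UMIs per gene and well or library, without normalization, for 23481 genes. The plates were mapped to times, and the bulk libraries to groups, by their labels. Members and gene lists (22) were chosen with earlier results of these data known.

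Wells with more than 2000 UMIs were kept, as in the study. Counts were summed over wells, divided by the summed UMIs and given per 10000, with exact Poisson intervals (95%), ratios with exact conditional intervals, shares with Clopper-Pearson intervals, and counts of 0 raised to a floor of 3 counts over a group in ratios (counts of 1 and 2 as well in an alternative added after seeing the data). Genes were compared at 2-fold with at least 50 UMIs on the larger side. A gene was named as 1 of the 12 largest or smallest mean ratios to 0 h, the 8 largest or smallest between 96 h and 60 h, or against matrix-rich wells (with all times on 1 side where times were averaged), as a member of a list with at least 30 UMIs, or among the 10 most abundant, which were Rn45s, Ppp1r16b, Sec23ip, Ogdh, Gmeb1, Dennd5b, Eef1a1, Ttf1, Rorb and Bcas2.

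Bulk counts of 6 libraries, with totals from 1097083 to 2297225 UMIs, entered the quasi-likelihood test of edgeR (version 4.0.16 under R 4.3.3, TMM, default filter on low counts, FDR 0.05), and DESeq2 1.42.0 was an alternative. Gkn2 and Rn45s, which hold text in place of counts, and 4 entries whose gene name occurs more than once were dropped from bulk. The biological coefficient of variation was 0.247, and permuting 2 libraries against 2 gives no p below 0.333. On simulated data the bulk step recovered 93.5% of genes changed 4-fold against mESCs (8743 genes run) and 88.5% against XEN-like cells (8706 genes). The RPKM tables of full-length single cells were not used, and of the bulk libraries outside these 6, the CD24 fractions and the ecto culture are given as values in the closing section and the rest were not used. Values of a few list members are not reported here. Scripts ran under Python 3.11.15 with pandas 2.3.3, numpy 2.4.6 and scipy 1.17.1, and figures were drawn with matplotlib 3.10.9.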

Additional observations from a re-analysis of the deposited data

Results flagged for a closer look

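Some genes lay on opposite sides of the 0 h level at 60 h and at 96 h, past 2-fold each way. With 1 culture per time the difference between the times was not tested. Higher at 60 h and lower at 96 h were Akr1b3, an aldose reductase, with a ratio to 0 h of 2.13 at 60 h and 0.227 at 96 h (4 UMIs), and Rpa1, a subunit of replication protein A, with 2.60 and 0.430 (7 UMIs).

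Lower at 60 h and higher at 96 h were 11 genes, for which the ratio at 96 h is given first and that at 60 h second. They were Ntn1, the axon guidance ligand netrin-1, with 2.63 and 0.219, and Fst, the activin antagonist follistatin, with 2.43 and 0.140. Ago2, the slicer of the RNA-induced silencing complex, had 2.02 and 0.352, and Eef2k, a kinase of elongation factor 2, had 2.08 and 0.222. B230219D22Rik, which was also among the largest ratios of 96 h to 60 h, had 2.49 and 0.414, and 2610008E11Rik had 2.61 and 0.382. Ccnt2 had 2.19 and 0.420, Ercc5 had 2.70 and 0.396, Gatad2b had 2.12 and 0.388, Mnt had 2.05 and 0.350, and Slc25a38 had 2.08 and 0.372. These 11 genes rest on few counts, from 9 to 52 UMIs at 60 h and from 12 to 40 at 96 h.

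The 2-cell list was above its 0 h level in wells of neither kind, which stand on neither side of the comparisons at 2-fold, at 16.8 UMIs per 10000 at 60 h and 43.9 at 72 h.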

How the results depend on the processing

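Of 170 counts under alternatives, 140 stayed within their limits and 30 moved, and of 3862 values of single genes and summed lists 3401 stayed, 117 moved, 338 lost a call and 6 reversed. The cause was not tested unless the alternative's construction shows it. Reversed against matrix-rich wells, with matrix genes below 0.5%, were Gm20767 (0.906), Adamts2 (0.778) and Gm21293 (0.297). The glycolysis list against 0 h turned to 1.00 without 96 h, to 1.01 with equal weights for wells and to 1.00 without wells over 20000 UMIs, the last 2 added after seeing the data. Against matrix-rich wells the genes higher were 62 below 0.5% matrix, 16 with counts of 1 and 2 raised to the floor (added after seeing the data), 174 without 60 h, 74 without 72 h and 183 without 96 h, and the genes lower 225 without 72 h, 232 without 96 h and 80 at 100 UMIs. Between 96 h and 60 h they were 804 and 1550 at 20 UMIs, 80 and 367 at 100 UMIs and 167 and 590 without wells of 10 or more 2-cell UMIs (added after seeing the data), and against 0 h 536 were higher at 100 UMIs.

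In bulk DESeq2 called 496 genes higher than mESCs and 247 higher than XEN-like cells, and without a filter edgeR called 1337 and 829. Leaving out 1 library gave 413 to 886 higher and 449 to 862 lower against mESCs, and 131 to 626 and 131 to 744 against XEN-like cells. The lowest counts came without ectoderm-like libraries: without the second 413 and 449 were called against mESCs, and without the first 131 and 131 against XEN-like cells, where 253 of 1135 calls remained. The highest came without the second XEN-like library against mESCs and without the first mESC library against XEN-like cells. With the replicate number as a block 1087 and 1072 were called against mESCs and 676 and 833 against XEN-like cells. The numbers were not taken as a pairing, since deviations of same-numbered libraries correlated by 0.0948, 0.0213 and 0.308. Of 258 calls of list and named genes 140 were kept under all alternatives and 88 were lost without the first ectoderm-like library. Depth limits the 96 h wells (39 wells) and the matrix-rich wells of 60 h (5 wells) most.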

Other observations

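Bulk libraries sorted by CD24 within PDGFRA- cells gave values for the same gene lists at earlier times, with 1 library for each fraction and therefore no test. Since CD24 was the gate and Cd24a chose wells, the order of the fractions is a description. At 72 h, in the 3 fractions from low to high CD24, the neural progenitor list stood at 16.8, 23.8 and 26.7 UMIs per 10000 and the pluripotency list at 50.7, 22.4 and 14.8. The 2-cell list stood at 12.8, 5.76 and 1.90 in the same fractions, so these transcripts were most frequent where CD24 was lowest. Hox genes were nearly level, at 5.18, 6.09 and 6.47, and imprinted genes at 13.8, 14.4 and 14.4.

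At 48 h, in the 4 fractions from low to high CD24, the neural progenitor list stood at 10.7, 12.4, 14.8 and 17.7 and the pluripotency list at 74.6, 73.3, 65.3 and 47.4. The imprinted list stood at 9.08, 10.7, 13.7 and 16.2, and the 2-cell list at 8.89, 9.21, 8.90 and 6.17. The 1 library labelled ecto culture P5 came from ectoderm-like cells cultured after sorting in N2B27 with EGF and FGF2. In it the neural progenitor list stood at 43.3, the imprinted list at 36.2 and the pluripotency list at 2.72. Hox genes stood at 1.80, against 5.80 and 1.71 in the sorted ectoderm-like libraries of 96 h.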
